A study of Mus musculus with 13 samples.

Results

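The data described here are the messenger RNA levels of 10 genes of the transforming growth factor beta (TGF-beta) system in single cells of mouse liver during cholangitis induced by 3,5-diethoxycarbonyl-1,4-dihydrocollidine (DDC). The genes were chosen by name, for the place of their products in the pathway, with earlier results of these data known. They comprise the ligands Tgfb1, Tgfb2 and Tgfb3, the storage protein Ltbp1, the integrin chains Itgb6, Itgb8 and Itgav, the receptors Tgfbr1 and Tgfbr2 and the target gene Tgfbi. All 10 were found among the 55353 genes of the files. Male C57BL/6J mice of 6 to 12 weeks were fed chow with 0.1% DDC for 3, 5, 9, 19 or 25 days (D3, D5, D9, D19, D25) or control chow (D0), and liver cells were isolated by protocol A and by protocol B at every time point, which gave 12 libraries. A further library, STOP, was made with protocol B from mice left to recover for 7 days after 18 days of DDC (1 of its labels gives day 19), and the D19 library of protocol B is labelled both day 19 and day 18. In protocol A, living single cells were sorted as Epcam+, Pdpn+, Cd45+ or Lyve-1+ cells, as Cd31+ cells without Lyve-1, or by retinoid autofluorescence, whereas protocol B took living cells of a stellate cell preparation together with Cd45+ Cd11c+ Cd64-, Epcam+ and Cd3e+ Lyve-1- cells. The labels do not tell which mice went into which library, so that SDs and tests count libraries and the spread between them may be technical.

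TGF-beta is secreted in a latent form, wrapped in its own propeptide, and latent TGF-beta binding proteins such as Ltbp1 tether it to the extracellular matrix. Integrins that contain the alpha-v chain (Itgav) together with the beta chain Itgb6, which is typical of injured epithelium, or Itgb8 release the active ligand, which then binds the type II receptor (Tgfbr2) and through it recruits the type I receptor (Tgfbr1) to phosphorylate SMAD proteins. In the liver the pathway is best known for driving matrix production by stellate cells and portal fibroblasts during biliary injury, and Tgfbi, a secreted matrix protein, is one of the genes that TGF-beta induces.

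Barcodes with at least 1500 UMIs (unique molecular identifiers, each counted as 1 captured transcript) were taken as cells, which left 95563 cells, with 1541 to 14764 cells and 29307190 to 108602421 UMIs per library and a median of 3350 to 12013 UMIs per cell. Any pair of libraries shared at most 49 cell barcodes, and the shared part was at most 0.519% of the smaller library, the latter in another pair. Cells were clustered without the 10 genes and without the other pathway genes named below, and clusters were named by marker genes with the suffix "-like". Biliary epithelial cell (BEC)-like cells numbered 5550, fibroblast-like cells, which include stellate cells, 1894, liver sinusoidal endothelial cell (LSEC)-like cells 18822, macrophage-like cells 12427, conventional dendritic cell (DC)-like cells 12800 and T-like cells 12273. Another 14547 cells (15.2%) stayed unnamed. For every library holding 20 or more cells of a type, the UMIs of those cells were added up gene by gene, and levels are given in CPM, a gene's UMIs scaled to a fixed total (counts per 1000000) for that type and library. At steady state BEC-like and fibroblast-like cells came from protocol A alone (776 and 367 cells in D0 A, 2 and 2 in D0 B), so that their comparisons with D0 rest on 1 steady-state library.

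In the GRCm38 assembly with the GENCODE M21 annotation, all 10 genes are protein coding. Tgfb1 lies at chr7:25687002-25705077 (plus strand), Tgfb2 at chr1:186622792-186705989 (minus), Tgfb3 at chr12:86056745-86079041 (minus) and Ltbp1 at chr17:75005568-75392512 (plus). Itgb6 at chr2:60598292-60722643 (minus) and Itgav at chr2:83724397-83806916 (plus) share a chromosome, as do Itgb8 at chr12:119158022-119238802 (minus) and Tgfb3. Tgfbr1 lies at chr4:47353222-47414931 (plus), Tgfbr2 at chr9:116084293-116175360 (minus) and Tgfbi at chr13:56609523-56639562 (plus).

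Among the ligands, Tgfb1 was detected in every cell type, with the highest levels in macrophage-like and LSEC-like cells and the lowest in BEC-like cells. The mean over libraries was 330 ± 57.6 CPM (SD, n = 13) in macrophage-like and 314 ± 49.9 CPM (n = 13) in LSEC-like cells, which lay within 1 SD of each other. It was 214 ± 30.5 CPM in DC-like and 178 ± 64.5 CPM in T-like cells (n = 13 each). Fibroblast-like cells had 145 ± 63.3 CPM (n = 10) and BEC-like cells 50.0 ± 15.8 CPM (n = 10), below the fibroblast-like cells in 8 of 8 libraries with both types. Within fibroblast-like cells, Tgfb1 was at 207 ± 88.0 CPM in the stellate-like cluster (n = 8) and at 65.5 ± 17.1 CPM in the portal fibroblast-like cluster (n = 6). The 16 macrophage markers in fibroblast-like cells summed to 3022 to 13988 CPM and the 12 LSEC markers to 54.7 to 10022 CPM. In T-like cells Tgfb1 was at 193 to 279 CPM in protocol A and at 91.3 to 202 CPM in protocol B. The 12 LSEC markers in T-like cells summed to 1435 to 5106 CPM and to 259 to 1237 CPM. The part of these markers in the Tgfb1 levels was not tested. Outside these 6 types, the highest mean Tgfb1 level belonged to monocyte-like cells with 496 ± 120 CPM (n = 9).

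Tgfb2, a ligand known for its role in epithelium and vessels, was distributed differently. It was at 103 ± 32.5 CPM in BEC-like (n = 10) and 76.3 ± 37.9 CPM in fibroblast-like cells (n = 10), which did not differ beyond their spread, and at no more than 3.62 CPM in any library of macrophage-like or LSEC-like cells. Large-vessel endothelial-like (CEC-like) cells had 158 ± 88.6 CPM (n = 11) and mesothelial-like cells 153 ± 70.6 CPM (n = 6). In DC-like cells Tgfb2 differed between the isolation protocols. The 6 protocol A libraries of DC-like cells had 7.56 to 38.4 CPM of Tgfb2 and the 7 protocol B libraries 0.200 to 1.64 CPM, without overlap. No share of all genes that separate the protocols in this way is given. Most of these UMIs lay in 1 subset, with 416 in cDC1-like (13.2 ± 19.5 CPM, n = 13), 12 in cDC2-like and 8 in mature DC-like cells. The summed level of the 12 CEC markers in the same DC-like sums was 316 to 1061 CPM in protocol A and 60.9 to 467 CPM in protocol B, and its part in the Tgfb2 level was not tested. Tgfb3 was low in all 6 types, with its highest mean in fibroblast-like cells at 11.2 ± 5.70 CPM (n = 10), and reached 26.9 ± 8.89 CPM in mesothelial-like cells (n = 6).

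Ltbp1, which anchors the latent ligand, was highest in fibroblast-like cells among the 6 compared types and in mesothelial-like cells among all named types. Fibroblast-like cells had 182 ± 51.6 CPM (n = 10) against 8.45 ± 5.42 CPM in BEC-like cells (n = 10), and the other 4 types had means of at most 1.15 CPM. Both fibroblast subsets carried it, with 227 ± 71.7 CPM in the portal fibroblast-like (n = 6) and 159 ± 59.6 CPM in the stellate-like cluster (n = 8). Mesothelial-like cells had 347 ± 237 CPM on average (n = 6) and differed widely between libraries.

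Of the activating integrin chains, Itgb6 was nearly confined to BEC-like cells among the 15 named types. BEC-like cells had 97.8 ± 36.2 CPM (n = 10), against means of 0.552 CPM in fibroblast-like, 0.382 CPM in LSEC-like, 0.281 CPM in macrophage-like, 0.147 CPM in DC-like and 0.0824 CPM in T-like cells. The count behind these last 5 means was 25, 34, 42, 21 and 10 UMIs. Of the 9 other named types, mesothelial-like cells had the highest mean, 3.45 ± 5.35 CPM (n = 6), from 19 UMIs. After each cell was thinned to 1500 UMIs, 11.8 ± 4.23% of BEC-like cells kept a UMI of Itgb6 (51.0% before thinning, at a median of 14224.5 UMIs per cell), against at most 0.0899% on average in each of the other 14 named types. Barcodes with 1 to 100 UMIs, below the 1500 UMIs of a cell, had a median of 3.54 CPM of Itgb6 over the libraries. The origin of the RNA in these barcodes was not tested.

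Itgb8 was also highest in BEC-like cells, with 55.8 ± 27.1 CPM (n = 10), followed by fibroblast-like cells with 15.8 ± 12.9 CPM (n = 10), lower in 8 of 8 libraries with both types although the SDs touch. LSEC-like and macrophage-like cells had means of 0.331 and 0.313 CPM, below the median of 3.54 CPM in barcodes with 1 to 100 UMIs. Within DC-like cells, Itgb8 belonged to the mature cluster with 24.2 ± 13.7 CPM (n = 10), against at most 2.77 CPM in any library of cDC1-like and 0.417 CPM in any library of cDC2-like cells.

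The alpha chain Itgav, the partner that both beta chains need, was found in all types. BEC-like cells had 178 ± 64.1 CPM (n = 10), macrophage-like cells 95.2 ± 29.2 CPM (n = 13) and fibroblast-like cells 86.7 ± 24.0 CPM (n = 10), neighbours whose levels lay within their spread. T-like, LSEC-like and DC-like cells followed with 36.1 ± 20.6, 28.3 ± 9.30 and 22.4 ± 9.71 CPM (n = 13 each). D0 B had the lowest Itgav level of the 13 libraries in LSEC-like (4.73 CPM), macrophage-like (21.2 CPM), DC-like (6.80 CPM) and T-like cells (7.72 CPM), at 15.2 to 32.5% of the median of the other libraries. It was also the lowest in barcodes with 1 to 100 UMIs (13.4 CPM against 32.1 to 93.5 CPM in the others), so that the low Itgav of D0 B was not limited to a cell type. D0 B is 1 of the 2 steady-state libraries for those 4 types. For Tgfbr1, too, D0 B was the lowest library in LSEC-like (17.3 CPM), macrophage-like (95.9 CPM) and T-like cells (17.4 CPM). Without it the log2 change of Itgav under DDC against D0 was 0.13 in LSEC-like (0.58 with it), -0.17 in macrophage-like (0.59), -0.58 in DC-like (0.30) and 0.83 in T-like cells (1.13), so that the sign turned in macrophage-like and DC-like cells, and none of these 8 changes was called by edgeR.

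The receptors were spread more widely. Tgfbr2, the ligand-binding receptor, was at 244 ± 70.9 CPM in fibroblast-like (n = 10) and 222 ± 30.4 CPM in LSEC-like cells (n = 13), which did not differ beyond their spread. T-like cells had 147 ± 32.8, macrophage-like cells 105 ± 23.7 and DC-like cells 61.3 ± 22.9 CPM (n = 13 each), and BEC-like cells were lowest of the 6 with 47.2 ± 10.3 CPM (n = 10). Higher means were seen in CEC-like (456 ± 84.5 CPM, n = 11) and lymphatic endothelial-like cells (596 ± 205 CPM, n = 6). Of the 6 types, Tgfbr1, the signalling receptor, was highest in macrophage-like cells with 156 ± 44.6 CPM (n = 13), followed by fibroblast-like cells with 83.9 ± 24.1 CPM (n = 10), and the other 4 had 28.2 to 44.6 CPM on average. Neutrophil-like, plasmacytoid DC-like and monocyte-like cells, with means of 153, 111 and 101 CPM of Tgfbr1, lay between macrophage-like and fibroblast-like cells. Within macrophage-like cells the 2 receptors were distributed in opposite directions, with Tgfbr1 at 191 ± 55.2 CPM in the lipid-associated macrophage-like cluster and 106 ± 37.0 CPM in Kupffer-like clusters, and Tgfbr2 at 83.5 ± 22.0 and 130 ± 16.5 CPM (n = 13 each).

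The target Tgfbi was at 681 ± 239 CPM in fibroblast-like (n = 10) and 407 ± 158 CPM in macrophage-like cells (n = 13), at 117 ± 41.2 CPM in DC-like cells (n = 13) and at means of 28.1, 9.67 and 6.97 CPM in BEC-like, LSEC-like and T-like cells. Stellate-like cells carried 1062 ± 223 CPM (n = 8) and portal fibroblast-like cells 294 ± 91.0 CPM (n = 6). Lipid-associated macrophage-like cells had 548 ± 174 CPM and Kupffer-like cells 231 ± 72.6 CPM (n = 13 each).

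**Figure D1:**
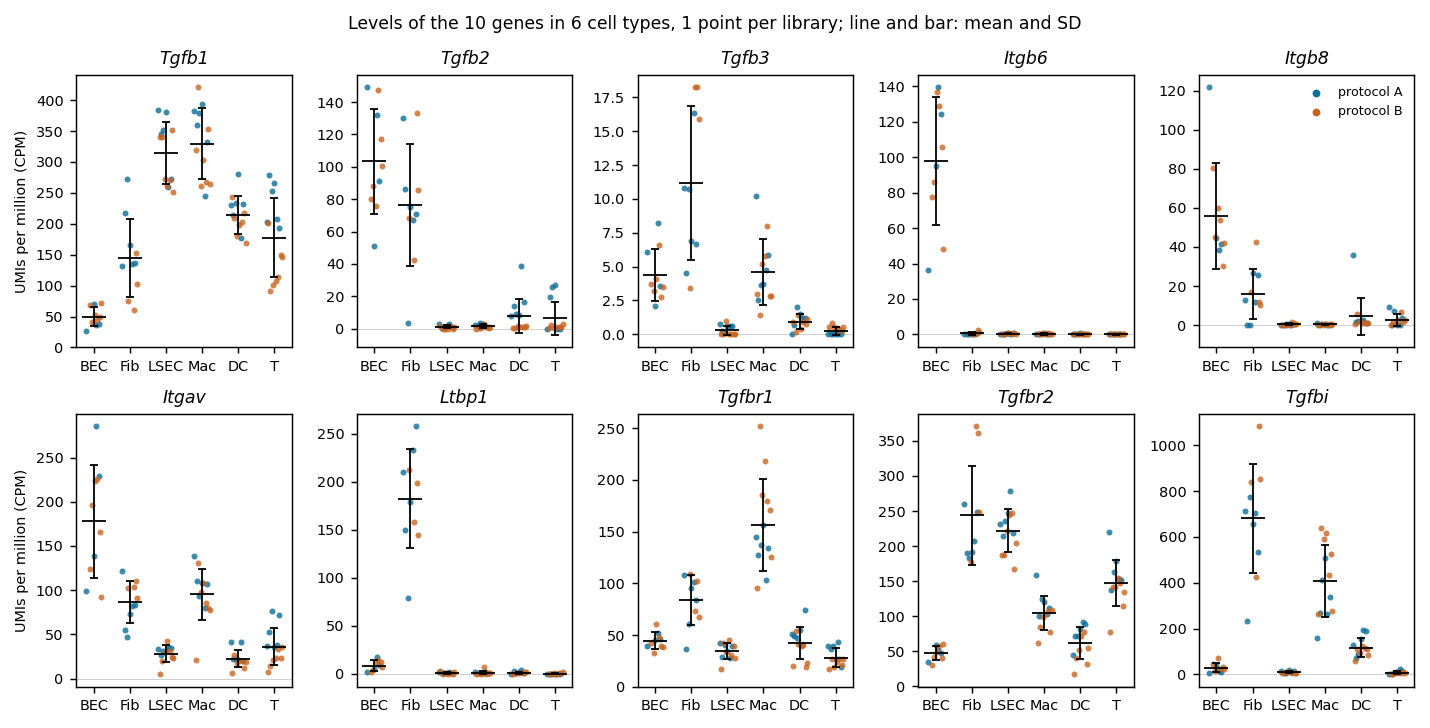
Levels of the 10 genes (vertical axis, CPM on a linear scale that differs between panels) in BEC-like, fibroblast-like (Fib), LSEC-like, macrophage-like (Mac), DC-like and T-like cells. Each point is 1 library, coloured by isolation protocol, and lines and bars give the mean and SD over 10 or 13 libraries. Itgb6 stands in BEC-like cells (97.8 CPM) and Ltbp1 in fibroblast-like cells (182 CPM), while Tgfb1 is seen in all 6 types.

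Which of these genes moved with the diet was asked by setting DDC libraries against D0 within each cell type, with the early diet days (D3, D5), called onset, and the later ones (D9, D19, D25), called progression, weighted equally. In BEC-like cells, the type of the bile duct lining, Itgb6 rose under DDC. Its level was 36.4 CPM in D0 A, 77.6 CPM in D3 B, 85.9 CPM in D5 B, 94.9 and 137 CPM in D9 A and D9 B, 140 and 129 CPM in D19 A and D19 B, and 124 and 106 CPM in D25 A and D25 B. All 8 DDC libraries thus lay above D0 A, and all 6 libraries of progression above both of onset. edgeR's quasi-likelihood test gave a log2 change of 1.66 (SE 0.30, 3.15-fold, adjusted p = 0.0474), the 1 member of 10 tested that was called in BEC-like cells, where 0.587% of 15323 genes were called. With a DDC library left out it was called in 1 of 8 fits, with an adjusted p of 0.0338 without D3 B and of 0.0551 to 0.123 without each of the others. Within protocol A, the difference of mean log2(CPM + 1) between DDC and D0 was 1.67, whereas protocol B had no D0 library with 20 BEC-like cells. In simulated data of this comparison, 13.7% of the genes called had not been changed.

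The other integrin chains of BEC-like cells were not called, and they differed from D0 A in opposite directions. Itgav was at 99.0 CPM in D0 A and at 124 to 286 CPM (median 210) in the 8 DDC libraries, a log2 change of 1.20 (SE 0.45, adjusted p = 0.193 by edgeR). Itgb8 was at 122 CPM in D0 A and at 30.3 to 80.7 CPM (median 45.0) under DDC, a log2 change of -1.10 (SE 0.38, adjusted p = 0.171). The DDC libraries did not overlap with D0 A for either gene.

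The ligands of BEC-like cells also lay on different sides of D0 A. Tgfb1 was at 26.4 CPM in D0 A and at 36.5 to 70.8 CPM under DDC, a log2 change of 1.24 (SE 0.46, adjusted p = 0.189 by edgeR). Tgfb2 was at 149 CPM in D0 A and at 51.2 to 148 CPM under DDC, with a log2 change of -0.71 (SE 0.46, adjusted p = 0.421). In all, 5 of 10 members (Itgb6, Itgav, Tgfb1, Ltbp1 and Tgfbi) were above D0 A in all 8 DDC libraries and 2 (Itgb8 and Tgfb2) were below it in all 8. Of all genes tested, 13.7% were above and 30.2% below the single D0 library in the same way. The median log2 change was 0.92 over the 10 members and 0.03 over all genes tested.

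**Figure D2:**
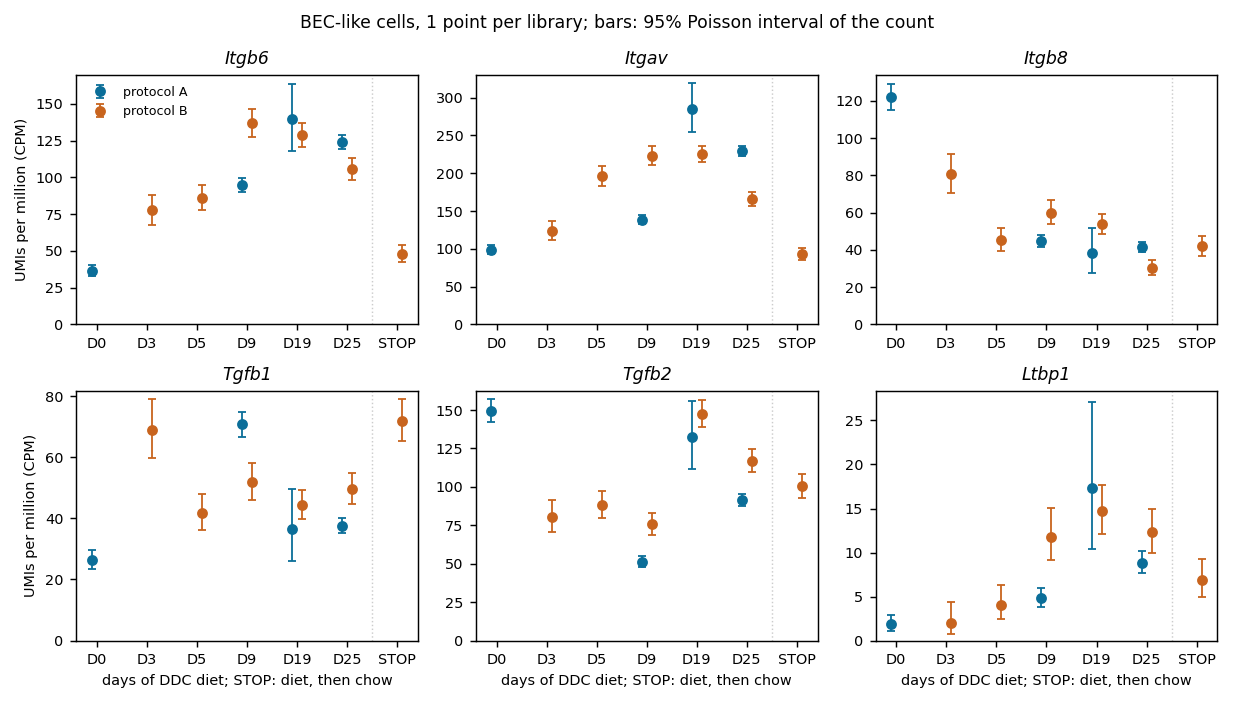
Levels (CPM) of 6 of the genes in BEC-like cells by days of DDC diet and after the diet stop, 1 point per library, coloured by isolation protocol, with exact 95% Poisson intervals of the count. Itgb6 goes from 36.4 CPM at D0 to 77.6 CPM or more in each DDC library and is at 48.0 CPM in STOP, while Itgb8 is highest at D0 with 122 CPM.

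BEC-like cells consisted of 6 clusters, and the mix of clusters changed along with the diet. Cluster 31, led by Ces1d, Slc5a1 and Pkhd1, held 87.5% of BEC-like cells in D0 A, 52.5% in D3 B and 2.18 to 7.72% in the later DDC libraries. Cluster 19, led by Cxcl5, Cldn4, Mmp7 and Lcn2, held 1.68% in D0 A and 12.3 to 63.0% under DDC. Itgb6 was at 37.1 CPM on average in cluster 31 and at 154 CPM in cluster 19, and Itgav at 84.6 and 294 CPM. Itgb8 was highest on average in cluster 31 with 94.7 CPM, against 54.8 CPM in cluster 19.

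Within cluster 31, Itgb6 was at 34.9 CPM in D0 A (interval 31.1 to 39.0), 42.2 CPM in D3 B (31.5 to 55.4), 59.9 CPM in D5 B (33.5 to 98.8), 38.1 CPM in D9 A (26.0 to 53.8) and 20.9 CPM in D25 A (9.03 to 41.2), so that 4 of 4 DDC intervals overlapped with that of D0 A. The lone D0 library leaves no spread at steady state, and it is assumed in the fit to vary like the others. When cluster 31 was left out, an alternative added after the data had been seen, the log2 change of Itgb6 was 1.41 (SE 0.32, adjusted p = 0.421 by edgeR) and no member was called. In that fit D0 A kept 48 cells of cluster 33, 22 of cluster 42, 13 of cluster 19, 9 of cluster 39 and 5 of cluster 51. Cluster 33 was led by S100g and Muc3, and cluster 42 by Tff2 and Tff3. The mix also differed between DDC libraries, with 488 of 1452 BEC-like cells of D9 A in cluster 39, and its part in that fit was not tested. The summed level of 9 hepatocyte markers in BEC-like cells was 6219 CPM in D0 A against 1185 to 3735 CPM under DDC, and that of 16 macrophage markers 9378 CPM against 3092 to 6749 CPM. Other marker sums were higher under DDC, with 16 fibroblast markers at 417 CPM in D0 A against 568 to 1461 CPM and 13 monocyte markers at 208 against 272 to 781 CPM. The part of these markers in the differences of the members, among them Ltbp1, Tgfbi and Tgfb1, was not tested.

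**Figure D3:**
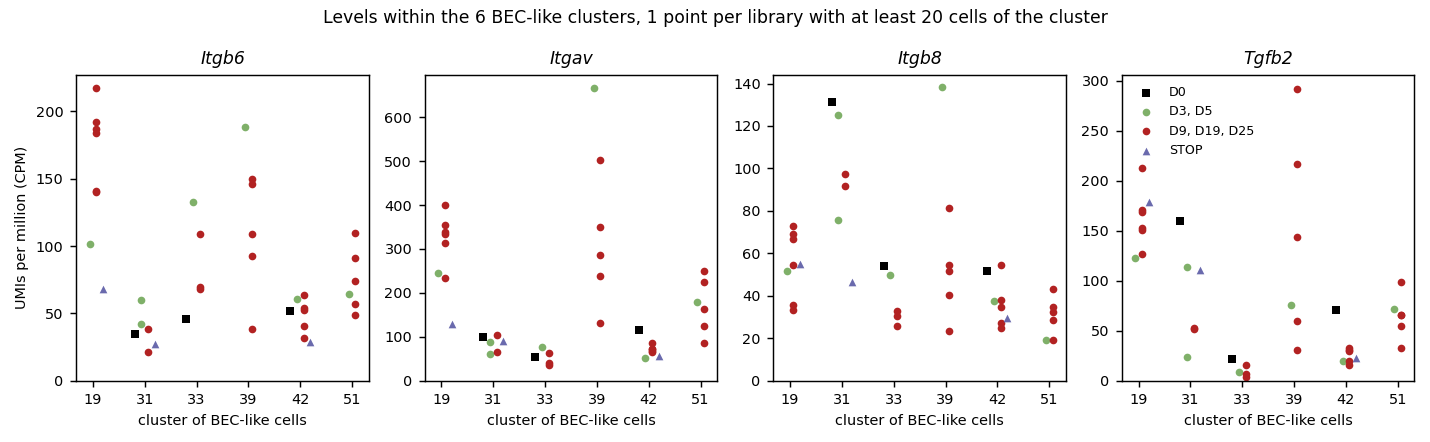
Levels (CPM) of Itgb6, Itgav, Itgb8 and Tgfb2 within the 6 BEC-like clusters, 1 point per library with at least 20 cells of the cluster, marked by stage. D0 is a square, onset green, progression red and STOP a triangle. In cluster 19 Itgb6 lies between 101 and 218 CPM in DDC libraries and at 68.1 CPM in STOP, and in cluster 31 between 20.9 and 59.9 CPM under DDC and at 34.9 CPM in D0 A.

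In macrophage-like cells, Tgfbi rose under DDC. It was at 159 and 265 CPM in D0 A and D0 B, at 268, 640, 410 and 590 CPM in D3 A, D3 B, D5 A and D5 B, and at 264 to 617 CPM (median 470) in the 6 libraries of progression. In 9 of 10 DDC libraries the level was above both D0 libraries, with D19 A at 264 CPM the exception. edgeR gave a log2 change of 1.12 (SE 0.27, 2.17-fold, adjusted p = 0.0331), the 1 member of 8 tested that was called, where 4.64% of 12544 genes were called. The difference of mean log2(CPM + 1) was 1.12 within protocol A and 1.07 within protocol B.

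Both macrophage subsets leaned the same way without passing the test. In Kupffer-like cells, Tgfbi was at 119 and 214 CPM at D0 and at 176 to 385 CPM under DDC, a log2 change of 0.80 (SE 0.24, adjusted p = 0.0567 by edgeR). Kupffer-like cells joined cluster 8, led by Clec4f and Marco, and cluster 13, led by Axl, Lpl and Gdf15. Cluster 13 held 52 of 449 Kupffer-like cells in D0 A and 5 of 30 in D0 B. Under DDC it held between 228 of 888 (D19 A) and 27 of 39 (D3 B), and its part was not tested. In lipid-associated macrophage-like cells, it was at 478 and 266 CPM at D0 and at 340 to 792 CPM under DDC, a log2 change of 0.90 (SE 0.29, adjusted p = 0.117). The lipid-associated cluster, whose Tgfbi level was the higher one, held 8.35% of macrophage-like cells in D0 A and 27.7 to 65.4% in protocol A libraries under DDC, and 54.9% in D0 B and 76.2 to 83.4% in protocol B libraries under DDC. A further cluster, led by H2-M2, Mmp13 and Lilra5, belonged to neither subset and held 13.6% of macrophage-like cells in D0 A and 36.1% in D0 B, against at most 0.373% in any other library. Its Tgfbi level was 219 CPM in D0 A and 276 CPM in D0 B.

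The call of Tgfbi rests on several libraries. The adjusted p was 0.126 without D0 A (log2 change 0.86), 0.0525 without D3 B, 0.0606 without D5 A, 0.0573 without D5 B, 0.0516 without D9 B and 0.0555 without D25 A, and it was 0.270 without a protocol term in the fit. The 16 BEC markers summed to 31.8 to 93.8 CPM in macrophage-like cells at D0 and to 433 to 5960 CPM under DDC, and their part in the Tgfbi difference was not tested. BEC-like cells themselves had 28.1 ± 19.7 CPM of Tgfbi (n = 10), below every macrophage-like library.

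The remaining members of macrophage-like cells were not called. Tgfb1 was at 382 and 320 CPM at D0 and at 245 to 422 CPM under DDC, with a log2 change of -0.05 (SE 0.22, adjusted p = 0.936 by edgeR). Tgfbr1 was at 144 and 95.9 CPM at D0 and at 103 to 252 CPM under DDC (log2 change 0.46, SE 0.21, adjusted p = 0.236), and Tgfbr2 had a log2 change of 0.02 (SE 0.18, adjusted p = 0.971). Itgav, whose D0 libraries were at 138 and 21.2 CPM, was at 79.5 to 131 CPM under DDC, between the 2. It had a log2 change of 0.59 (SE 0.35, adjusted p = 0.379) and, without D0 A, of 2.03 (adjusted p = 0.00576), so that its direction against D0 depends on the D0 library. The median log2 change was 0.24 over the 8 members tested and 0.04 over all genes.

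In DC-like cells, Tgfbr2 rose under DDC. It was at 45.4 and 17.1 CPM in D0 A and D0 B, at 71.4, 40.5, 71.1 and 51.4 CPM in D3 A, D3 B, D5 A and D5 B, and at 32.5 to 92.4 CPM (median 79.8) in progression. Levels were above both D0 libraries in 8 of 10 DDC libraries, the exceptions being D3 B and D25 B at 32.5 CPM. edgeR gave a log2 change of 1.08 (SE 0.28, 2.11-fold, adjusted p = 0.0397), the 1 member of 9 tested that was called, where 4.29% of 13651 genes were called. The difference of mean log2(CPM + 1) was 0.82 within protocol A and 1.55 within protocol B.

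In cDC1-like cells alone, the cross-presenting subset, Tgfbr2 was at 50.2 and 17.1 CPM at D0 and at 26.6 to 133 CPM under DDC, with a log2 change of 0.99 (SE 0.29, adjusted p = 0.0441 by edgeR). In cDC2-like cells it was at 54.6 and 19.2 CPM at D0 and at 33.1 to 90.9 CPM under DDC, with a log2 change of 1.05 (SE 0.34, adjusted p = 0.126). Both subsets were computed after the data had been seen, and the difference between them was not tested. cDC1-like cells joined clusters 6, 28 and 44, in a mix that differed between libraries. Cluster 28, led by Xcr1 and Itgae, held 5 of 31 cDC1-like cells in D0 A and 39 of 1197 in D0 B. Under DDC it held between 67 of 573 (D25 B) and 123 of 245 (D3 A), and its part was not tested.

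D0 B bears on this call, since it was the lowest of 13 libraries for Tgfbr2 in DC-like cells, in macrophage-like cells (62.4 CPM) and in T-like cells (77.7 CPM). Without D0 B the log2 change in DC-like cells was 0.98 with an adjusted p of 0.347, and without D0 A 1.10 with 0.0410. The adjusted p also lay between 0.0512 and 0.0690 without D3 A, D5 A, D5 B, D9 A, D9 B, D19 A, D19 B or D25 A. With cells typed one by one through a marker gate in place of clusters the log2 change was 0.42 (adjusted p = 0.707), where the gate gave the same type to 55.8% of the DC-like cells, and with called doublets removed it was 0.96 (adjusted p = 0.127). D0 A held 65 DC-like cells. The 16 macrophage markers in DC-like cells summed to 518 to 733 CPM at D0 and to 720 to 13965 CPM under DDC, with the highest value in D19 A. The 13 monocyte markers summed to 1574 to 2467 CPM at D0 and to 2107 to 5042 CPM under DDC, while monocyte-like cells had 77.0 CPM of Tgfbr2. The 12 LSEC markers summed to 200 to 807 CPM at D0 and to 484 to 1927 CPM under DDC, and the 12 CEC markers to 60.9 to 316 CPM and to 170 to 1061 CPM, while LSEC-like and CEC-like cells themselves had 222 and 456 CPM of Tgfbr2. The part of these markers in the Tgfbr2 difference was not tested.

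Itgb8 in DC-like cells was at 35.9 CPM in D0 A, at 0.467 CPM in D0 B and at 0.878 to 5.84 CPM under DDC, a log2 change of -2.23 (SE 0.98, adjusted p = 0.199 by edgeR). D0 A thus stands alone in this gene, from 19 UMIs in 65 cells. The mature cluster that carries Itgb8 held 21.5% of DC-like cells in D0 A, 6.95% in D0 B, 14.2% in D3 A and 15.7% in D3 B, where Itgb8 was at 1.69 and 5.84 CPM in D3 A and D3 B, and its part was not tested. Without D0 B, Itgb8 was called lower under DDC (log2 change -4.34, SE 0.68, adjusted p = 0.0206 by edgeR). Tgfb1 was at 231 and 243 CPM at D0 and at 178 to 280 CPM under DDC (log2 change -0.36, SE 0.24, adjusted p = 0.404). The median log2 change was 0.30 over the 9 members tested and 0.00 over all genes.

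**Figure D4:**
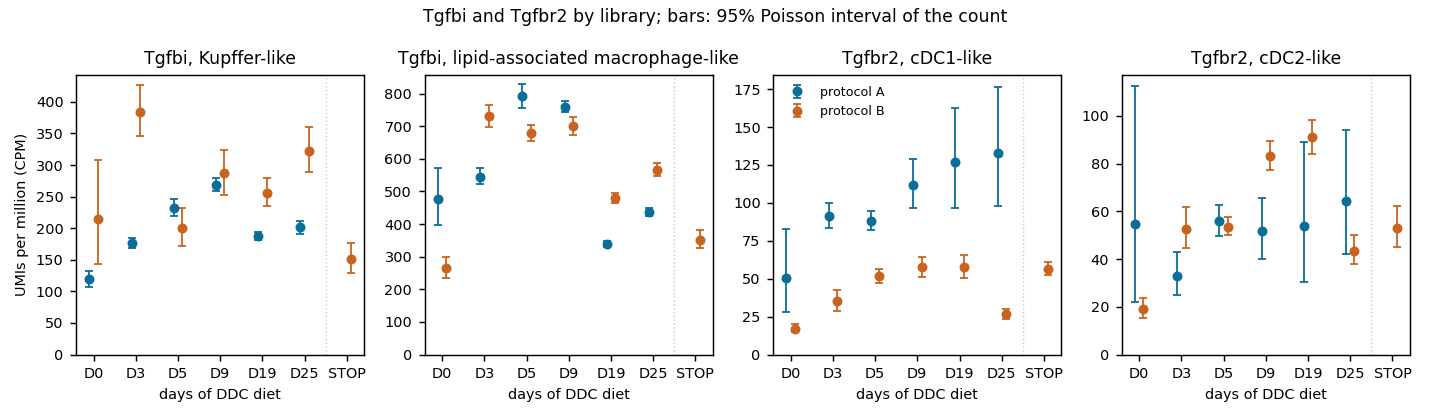
Tgfbi in Kupffer-like and lipid-associated macrophage-like cells and Tgfbr2 in cDC1-like and cDC2-like cells (CPM) by days of DDC diet and after the diet stop, 1 point per library, coloured by isolation protocol, with exact 95% Poisson intervals of the count. Kupffer-like Tgfbi is lowest in D0 A at 119 CPM, and Tgfbr2 is lowest in D0 B in both DC subsets, at 17.1 and 19.2 CPM.

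In fibroblast-like cells, the main matrix producers, none of the 9 members tested was called by edgeR, where 0.00911% of 10972 genes were called. At an unadjusted p below 0.05 there was 1 of 9 members, Itgav, beside 8.36% of all genes, and DESeq2 called 0, beside 0.447%. Itgav was at 121 CPM in D0 A and at 46.5 to 110 CPM in all 8 DDC libraries (log2 change -0.76, SE 0.33, adjusted p = 0.584). Tgfb1 was at 132 CPM in D0 A and at 60.8 to 272 CPM under DDC, Ltbp1 at 211 and 78.7 to 258 CPM and Tgfbi at 711 and 231 to 1083 CPM, so that D0 A lay inside the range of the DDC libraries for these 3 genes. The stellate-like cluster, whose Tgfb1 and Tgfbi levels were the higher ones, held 33.5% of fibroblast-like cells in D0 A and 30.0 to 96.7% in the 8 DDC libraries, and its part was not tested. Of all genes tested in fibroblast-like cells, 14.3% lay below D0 A in all 8 DDC libraries, as did 1 of 9 members. D3 A, D5 A, D5 B and D19 B held 20, 30, 37 and 20 fibroblast-like cells, and in simulated data of this comparison 7.00% of genes with a log2 change of 2 were recovered. The median log2 change was -0.27 over the 9 members and -0.02 over all genes.

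In LSEC-like cells none of the 7 members tested was called by edgeR, where 0.427% of 12886 genes were called. At an unadjusted p below 0.05 there were 0 members, beside 11.8% of all genes, and DESeq2 called 0, beside 2.25%. Tgfb1 was at 385 and 340 CPM at D0 and at 260 to 381 CPM under DDC (log2 change -0.15, SE 0.20, adjusted p = 0.849). Tgfbr2 was at 231 and 187 CPM at D0 and at 167 to 279 CPM under DDC (log2 change 0.17, SE 0.20, adjusted p = 0.815). An interval of 2 SE on each side of the log2 change ran from -0.56 to 0.26 for Tgfb1 and from -0.23 to 0.57 for Tgfbr2. In simulated data of this comparison, 65.5% of genes with a log2 change of 2 were recovered. The mix of LSEC-like clusters differed between libraries. Cluster 14, led by Serpina1e, Mup11, Asb4 and Mup3, held 73.8% of LSEC-like cells in D0 A and at most 2.22% in any other library. Cluster 7, led by Adamts4, Gja1 and Art3, held 76.1% in D0 B and 7.06% in D0 A. Cluster 15, led by Rasd1, Ednrb and Rab3b, held 77.1% in D19 A and at most 22.6% in the others. The 9 hepatocyte markers in LSEC-like cells summed to 115 to 1123 CPM at D0 and to 215 to 392 CPM under DDC. The part of this mix and of these markers was not tested.

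In T-like cells none of the 7 members tested was called by edgeR either, where 0.134% of 11182 genes were called. At an unadjusted p below 0.05 there were 2 of 7 members, Itgav and Tgfb2, beside 14.6% of all genes, and DESeq2 called 0, beside 2.24% of all genes. Itgav was at 36.8 and 7.72 CPM at D0 and at 13.6 to 76.6 CPM under DDC, with a log2 change of 1.13 (SE 0.38, adjusted p = 0.178). Tgfb2 was at 0 CPM in D0 A and 0.249 CPM in D0 B and at up to 26.8 CPM under DDC (log2 change 3.17, SE 1.34, adjusted p = 0.274), and in this type too the highest values came from protocol A. Tgfb1 was at 202 CPM in both D0 libraries and at 91.3 to 279 CPM under DDC. The differences of mean log2(CPM + 1) of Tgfb1 in T-like cells were 0.23 within protocol A and -0.85 within protocol B, in opposite directions. The mix of T-like clusters differed between libraries too. Cluster 10, led by Cd40lg, Icos and Trat1, held 27 of 88 T-like cells in D0 A and 789 of 1614 in D0 B. In protocol B under DDC it held between 254 of 1752 (D5 B) and 111 of 455 (D3 B), and its part was not tested.

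**Figure D5:**
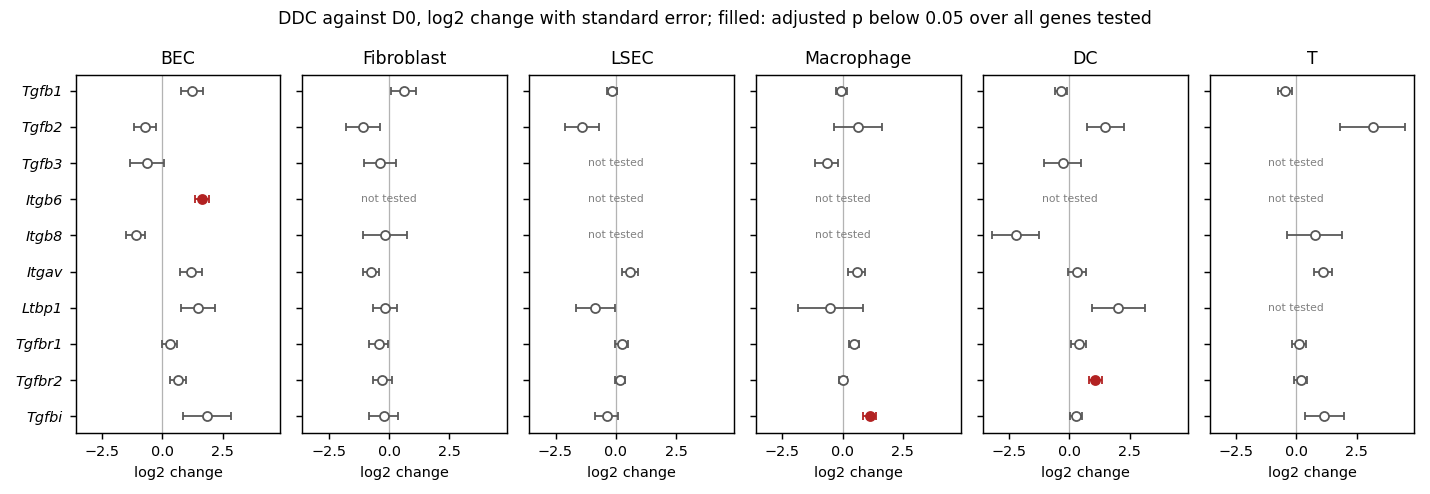
log2 change of each gene under DDC against D0 by edgeR in 6 cell types, with its standard error as a bar, on 1 shared horizontal scale. Filled points mark an adjusted p below 0.05 over all genes tested, which holds for Itgb6 in BEC-like (1.66), Tgfbi in macrophage-like (1.12) and Tgfbr2 in DC-like cells (1.08), and "not tested" marks genes with too few counts.

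Whether the genes differed between progression and onset was asked in the same fits, and no member was called in any of the 6 types by edgeR or DESeq2. In BEC-like cells 0% of 15323 genes were called and 2 of 10 members had an unadjusted p below 0.05, as did 5.23% of all genes. One was Ltbp1, at 2.02 and 4.03 CPM in D3 B and D5 B and at 4.78 to 17.3 CPM (median 12.0) in progression, with a log2 change of 1.96 (SE 0.52, adjusted p = 0.913 by edgeR). The other was Itgb6, with a log2 change of 0.53 (SE 0.21, adjusted p = 0.922). Both genes were higher in 6 of 6 libraries of progression than in either library of onset, while Itgav was so in 4 of 6. Of all genes tested in BEC-like cells, 4.69% were higher in every library of progression than in both of onset.

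In fibroblast-like cells 0.182% of genes were called, and 0 of 9 members had an unadjusted p below 0.05, against 13.1% of all genes. In LSEC-like cells 0.0776% of genes were called, and the members at an unadjusted p below 0.05 were Tgfb2 and Tgfbi, 2 of 7 (8.43% of all genes), at levels of at most 3.07 and 19.2 CPM in any library. In macrophage-like cells 0.159% were called and 1 of 8 members, Ltbp1, had such a p (12.2% of all genes), with a median of 0.536 CPM over the libraries. In DC-like cells 0.00733% were called. Tgfbi was the 1 of 9 members with such a p there (6.35% of all genes), at 70.9 to 111 CPM in onset and 112 to 193 CPM in progression, without overlap, as held upward for 0.44% of all genes (log2 change 0.63, SE 0.20, adjusted p = 0.619 by edgeR), although the difference of mean log2(CPM + 1) was 1.14 within protocol A and 0.20 within protocol B. The nearest libraries, D3 B at 110.6 CPM (Poisson interval 102.9 to 118.7) and D25 B at 111.8 CPM (106.3 to 117.6), had overlapping intervals. The highest level, 193 CPM, was that of D19 A, where the 16 macrophage markers in DC-like cells summed to 13965 CPM. Macrophage-like and monocyte-like cells had 407 and 631 CPM of Tgfbi, and the part of these markers was not tested. In T-like cells 0% were called and 0 of 7 members had an unadjusted p below 0.05.

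After the diet stop Itgb6 and Itgav of BEC-like cells were lower than in D19 B. The STOP library was set against D19 B, the library of the same protocol with the nearest length of diet, with exact Poisson intervals that cover counting error only, and no test was run on this pair of single libraries. These intervals were separate for 29.9% of all genes in BEC-like, 45.0% in DC-like, 46.4% in T-like, 25.2% in macrophage-like, 23.7% in LSEC-like and 19.4% in fibroblast-like cells. Of the members tested, 1 was higher and 5 lower of 10 in BEC-like, and 0 and 4 of 9 in DC-like cells. The counts were 2 and 1 of 7 in T-like, 0 and 3 of 8 in macrophage-like, 0 and 1 of 7 in LSEC-like and 1 and 2 of 9 in fibroblast-like cells. In DC-like and T-like cells the members were thus separate about as often as all genes. Itgb6 was at 48.0 CPM in STOP (interval 42.6 to 53.8) and at 129 CPM in D19 B (121 to 137). Itgav was at 92.8 CPM (85.2 to 101) against 225 CPM (215 to 236). D0 A, of the other protocol, had 36.4 CPM of Itgb6 (32.8 to 40.3) and 99.0 CPM of Itgav, but 122 CPM of Itgb8 and 26.4 CPM of Tgfb1, where STOP had 42.0 and 71.8 CPM.

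Among the other members in BEC-like cells, Tgfb2 was at 100 CPM in STOP against 148 CPM, Ltbp1 at 6.83 against 14.7 CPM and Itgb8 at 42.0 against 53.7 CPM, all with separate intervals, while Itgb8 in D19 A was at 38.3 CPM. Tgfb1 was the 1 member of 10 that was higher, with 71.8 CPM (65.2 to 78.9) against 44.4 CPM (39.8 to 49.4). The 16 macrophage markers in BEC-like cells summed to 8208 CPM in STOP and to 3092 to 5132 CPM in libraries of progression. For the 12 LSEC markers the sums were 1961 CPM and 320 to 1142 CPM, and the part of these markers in the Tgfb1 difference was not tested. Cluster 31 held 36.0% of BEC-like cells in STOP and 3.64% in D19 B. Itgb6 was lower in STOP also within cluster 19, at 68.1 CPM (57.3 to 80.3) against 187 CPM (175 to 200), as was Itgav with 130 CPM (115 to 146) against 314 CPM (298 to 331).

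In macrophage-like cells, Tgfbi was at 276 CPM in STOP (257 to 296) against 434 CPM in D19 B (421 to 447), and Tgfbr1 at 126 against 179 CPM. The lipid-associated cluster, with the higher Tgfbi and Tgfbr1 levels, held 63.8% of macrophage-like cells in STOP and 83.4% in D19 B. Within it Tgfbi was at 353 against 480 CPM, and within Kupffer-like cells at 151 against 256 CPM. In DC-like cells 4 of 9 members tested were lower in STOP with separate intervals, as were 22.6% of all genes, and 0 were higher, as were 22.4% of all genes. Among the 4 were Tgfbr2 at 55.1 CPM (51.6 to 58.7) against 77.7 CPM (72.6 to 83.0) and Tgfbr1 at 23.2 against 40.6 CPM. The mix differed here too, with cDC1-like cells making up 70.0% of DC-like cells in STOP and 28.2% in D19 B. Tgfbr2 was at 56.6 against 57.5 CPM within cDC1-like and at 53.2 against 90.9 CPM within cDC2-like cells, and Tgfbr1 at 19.8 against 26.9 and at 25.4 against 48.4 CPM. In LSEC-like cells Tgfbr2 alone had separate intervals, at 204 against 247 CPM. In T-like cells Tgfb1 was higher in STOP, with 147 CPM (140 to 154) against 114 CPM (108 to 121), as was Tgfb2 with 2.99 against 0.926 CPM, whereas Itgb8 was lower with 2.73 CPM (1.87 to 3.85) against 6.76 CPM (5.30 to 8.50). Of all genes tested in T-like cells, 30.1% were higher and 16.2% lower in this way. A T-like cluster led by Penk, Coch and Gzmk, with 53.4 CPM of Itgb8 in D19 B, held 127 of 2241 T-like cells there and 15 of 2618 in STOP, and the part of the mix in these T-like differences was not tested. D19 B held 20 fibroblast-like cells, and with 523 such cells STOP had 852 CPM of Tgfbi against 426 CPM, whereas Itgb8 was lower with 10.1 CPM (7.95 to 12.7) against 42.6 CPM (17.1 to 87.7), as was Tgfbr2 with 249 against 371 CPM. The stellate-like cluster, with the higher Tgfbi level, held 91.6% of fibroblast-like cells in STOP and 30.0% in D19 B.

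Other genes of the pathway were read from a list of 35, made of further storage proteins, activators, co-receptors and related receptors, signal transducers with their inhibitors, and targets. In macrophage-like cells 7 rose and 3 fell of 32 tested under DDC against D0, where 4.64% of all genes were called. The 3 with the largest rise were Itgb3, an alpha-v partner (log2 change 2.47, SE 0.52, adjusted p = 0.0181 by edgeR), Thbs1, which encodes the activator thrombospondin (2.04, SE 0.46, adjusted p = 0.0240), and the target Fn1, fibronectin (2.01, SE 0.48, adjusted p = 0.0310). Thbs1 was at 59.5 and 65.8 CPM at D0 and at 92.9 to 611 CPM under DDC, and Fn1 at 22.1 and 42.4 CPM at D0 and at 29.3 to 320 CPM under DDC, whereas Itgb3 stayed at or below 10.2 CPM. The 3 that fell were Bambi, a decoy receptor (log2 change -1.02, SE 0.25), Acvrl1, an endothelial type I receptor (-0.88, SE 0.23), and Skil, a repressor of SMAD signalling (-0.81, SE 0.21), with adjusted p of 0.0331, 0.0429 and 0.0438. By role, 4 of 6 activators, 3 of 3 co-receptors and related receptors, 2 of 12 transducers and inhibitors, 1 of 6 targets and 0 of 5 storage proteins tested were called in macrophage-like cells. Of the co-receptors and related receptors, Eng and Tgfbr3 rose and Acvrl1 fell. The co-receptors Eng (173 and 28.3 CPM in D0 A and D0 B, 57.0 to 427 CPM under DDC) and Tgfbr3 (36.4 and 1.18 CPM, 11.7 to 91.5 CPM) overlapped with D0. The 12 LSEC markers in the same sums were at 478 to 2543 CPM at D0 and at 971 to 4147 CPM under DDC, and their part and that of the cluster mix given above in these calls were not tested.

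In DC-like cells 5 genes of the list rose and 1 fell of 34 tested, where 4.29% of all genes were called. The largest rises were those of Tgfbr3, the co-receptor betaglycan (log2 change 2.48, SE 0.43, adjusted p = 0.00668 by edgeR), Mmp14, a membrane-bound protease (1.86, SE 0.35, adjusted p = 0.00884), and Eng, the co-receptor endoglin (1.36, SE 0.25, adjusted p = 0.00884), and Acvrl1 fell (log2 change -1.08, SE 0.27, adjusted p = 0.0329). Tgfbr3 was at 1.93 and 3.78 CPM at D0 and at 6.87 to 41.3 CPM under DDC, and Mmp14 at 26.5 and 3.73 CPM at D0 and at 17.4 to 65.4 CPM under DDC. Eng was at 104 and 20.1 CPM in D0 A and D0 B and at 50.5 to 277 CPM under DDC, so that D0 A lay inside the DDC range for both Mmp14 and Eng. No fit without D0 B is given for the genes of the list. Tgfbr3 and Eng are also genes of endothelium, whose markers moved with DDC in the same sums, as given above for Tgfbr2, and their part was not tested. Acvrl1 was at 96.8 and 102 CPM at D0, at 42.7 to 85.1 CPM under DDC and at 94.2 CPM in STOP. In the other 4 types 0 genes of the list were called by edgeR under DDC, with 10 of 35 in BEC-like, 3 of 35 in fibroblast-like, 11 of 33 in LSEC-like and 8 of 28 in T-like cells at an unadjusted p below 0.05, and DESeq2 called 4, 0, 6 and 1, where it called 4.19%, 0.447%, 2.25% and 2.24% of all genes. The share of all genes at such a p was 19.6% in BEC-like, 8.36% in fibroblast-like, 11.8% in LSEC-like and 14.6% in T-like cells, so that the share of the list in fibroblast-like cells, 8.57%, lay at that of all genes. Between progression and onset edgeR called 0 of the list in all 6 types, with 1 to 11 per type (2.94 to 31.4%) at an unadjusted p below 0.05, against 4.70 to 13.1% of all genes, while DESeq2 called 0 to 3, against 0.0653 to 2.56% of all genes.

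As a description of where each gene is found, its mean log2(CPM + 1) over libraries was correlated with that of 9811 other genes across the 15 named cell types, which share libraries and depth. Itgb6 was most like Cldn23 (Pearson's r = 0.998), Krt17 and Pof1b, Itgb8 like Shisa4 (r = 0.945), Ift81 and Bicdl2, and Itgav like Ltbp3 (r = 0.839), Zfp703 and Stub1. Tgfb1 was most like Osbpl8 (r = 0.929), P2ry10b and Abcg1, Tgfb2 like Fbln2 (r = 0.957), Fmo2 and Rbms3, and Tgfb3 like Ahnak2 (r = 0.950), Pdpn and Pkia. Ltbp1 was most like Adamtsl1 (r = 0.962), Fhl1 and Cavin3. Tgfbr1 was most like Atp6v0c (r = 0.893), Tgfbr2 like Nxn (r = 0.933), Mindy2 and Herc2, and Tgfbi like Emilin2 (r = 0.916), Tnfrsf21 and Lrp1.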

How the data were processed

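Single cells of mouse liver were sequenced by droplet-based 10x 3′ chemistry (version 3.1), with 1 library per time point and isolation protocol. The authors used kallisto to count UMIs, and the deposited counts are whole numbers for each gene in each barcode, neither normalized nor filtered for cells. The submitters' processing notes name GRCm38, and the kallisto version and the annotation are not given in the sources used here. A barcode counted as a cell from 1500 UMIs upward. After scaling of each cell to 10000 UMIs and taking the log of the value plus 1, cells were clustered by the Leiden method at resolution 1.5 (2000 variable genes, 40 principal components, 25 neighbours, scanpy 1.11.5, igraph 0.11.9) without the 10 genes and the 35 further pathway genes. This gave 65 clusters, of which 19 stayed unnamed. A name needed 3 detected markers, which did not suffice alone. Clusters also stayed unnamed when no type showed most of its markers, or when markers of another type led. Markers of another lineage or a size under 20 cells had the same effect. Cluster 40 (725 cells, led by Wfdc18, Cldn4 and Cxcl5) and cluster 37 (757 cells, led by Cd209a and Clec10a) carried markers of another lineage. Unnamed clusters entered none of the 6 types. Doublets were not removed in the main analysis. Scrublet scored the cells, and those with the highest scores in each library were called at a preset rate of 0.8% per 1000 cells. This gave 6528 called cells (6.83%), a number fixed by that rate. The members, the pathway list and the markers were chosen with earlier results of these data known.

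UMIs were summed per library and cell type with at least 20 cells, so that between 9 and 12 atlas libraries entered each fit. edgeR 4.0.16 (quasi-likelihood test, TMM normalization, filterByExpr) fitted the stages steady state, onset and progression with isolation protocol as a term, and p-values were adjusted by Benjamini-Hochberg over all genes tested at 0.05. The SE was derived from the log2 change and the F statistic, as their quotient after taking the root of F. Filtered for low counts and not tested were Itgb6 in all types but BEC-like, Itgb8 and Tgfb3 in LSEC-like, Itgb8 in macrophage-like, and Tgfb3 and Ltbp1 in T-like cells. Levels between cell types carry no test, since the types are clusters of the same cells. Named were all 10 members and, of the pathway list, at most the 3 genes with the largest change in each direction among those called. Alternatives were DESeq2 1.42.0 with its size factors, all genes kept whatever their counts, a minimum of 3000 UMIs a cell, removal of doublets, no protocol term, a per-cell marker gate and each library left out. The fits were tested on simulated data in which 200 genes had a log2 change of 2. They recovered 31.5% of these in BEC-like, 7.00% in fibroblast-like, 65.5% in LSEC-like, 70.5% in macrophage-like, 65.5% in DC-like and 78.0% in T-like cells for DDC against D0, and 61.0 to 91.5% for progression against onset. For DDC against D0, 13.7% of the genes called in BEC-like and 17.65% in fibroblast-like cells had not been changed, above the threshold of 0.05. This share was 4.38% in LSEC-like, 2.08% in macrophage-like, 2.96% in DC-like and 9.30% in T-like cells. It was 2.31 to 8.95% for progression against onset. Poisson intervals cover counting error only.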

Additional observations from a re-analysis of the deposited data

Results flagged for a closer look

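Among the 58 groups of 4 or 6 libraries examined for a library far from the others (onset and progression in each cell type, genes with a mean of at least 10 CPM), 6 had one, and chance alone gives about 1 in 20. Itgav in DC-like cells of progression was highest in D19 A with 40.8 CPM, from 34 UMIs in 67 cells, against 21.4 CPM in the next library. Itgav in T-like cells of progression was highest in D25 A with 71.8 CPM, from 19 UMIs, against 38.2 CPM in the next. Tgfbr1 in T-like cells of progression was highest in D19 A with 43.7 CPM, from 8 UMIs in 33 cells, against 27.3 CPM. Tgfbr2 in T-like cells of onset was highest in D5 A with 162 CPM, against 142 CPM. Tgfb1 in LSEC-like cells of onset was lowest in D5 B with 272 CPM, against 341 CPM in the next library. Tgfbr2 in DC-like cells of progression was lowest in D25 B with 32.5 CPM, from 444 UMIs in 1091 cells, against 71.7 CPM, and it was low there in cDC1-like (26.6 CPM) and cDC2-like cells (43.5 CPM).

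Itgav lay on opposite sides of D0 A in BEC-like and fibroblast-like cells. In BEC-like cells its mean under DDC was 198 CPM against 99.0 CPM in D0 A, higher in 8 of 8 libraries, as 13.7% of all genes tested there were. In fibroblast-like cells the mean under DDC was 81.8 CPM against 121 CPM in D0 A, lower in 8 of 8 libraries, as 14.3% of all genes tested in these cells were. Both sides rest on 1 steady-state library, neither change was called, and the difference between the cell types was not tested.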

How the results depend on the processing

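Of 1664 log2 changes of the members recomputed under alternatives, 1622 stayed on the same side of the threshold, 30 were lost, 12 were gained and 0 called changes reversed, while 99 changes that were called on neither side had another sign. All 146 levels by cell type stayed within 1 SD. Of 210 counts of called members, 175 stayed within 1.5 times. For DDC against D0 in BEC-like cells the count of 1 became 5 with no filter on low counts and 0 without cluster 31, and it was 0 to 1 with a library left out. In macrophage-like cells the count of 1 became 0 with no protocol term, in Kupffer-like cells alone and in lipid-associated cells alone, and 0 to 1 with a library left out. In DC-like cells it became 2 with DESeq2 and 2 with no filter, 0 with doublets removed, 0 with no protocol term, 0 with the marker gate, 0 in cDC2-like cells alone and 0 to 2 with a library left out. In T-like cells the count of 0 was 0 to 1 with a library left out. For progression against onset the count of 0 became 1 in BEC-like and 1 in macrophage-like cells with no filter, Ltbp1 in both. DESeq2 called 8.50% of all genes tested in DC-like cells for DDC against D0, and no such share is given for the fits with no filter.

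With no filter, the log2 changes of Tgfb1, Itgb8, Itgav and Tgfbi in BEC-like cells were 1.18, -1.16, 1.13 and 1.81. With the filter they were 1.24, -1.10, 1.20 and 1.86, with larger SEs. These genes and Itgb6 make up the count of 5, which has no share of all genes beside it. Without D0 A, Tgfb1 was called lower under DDC in DC-like (log2 change -0.80, adjusted p = 0.0467 by edgeR) and T-like cells (-1.03, adjusted p = 0.0242). Without D0 B, Itgb8 was the 1 member called in DC-like cells. Over all alternatives the log2 change of Itgb6 in BEC-like cells was 1.41 to 1.76 (adjusted p 2.93e-04 to 0.421, called in 7 of 15), that of Tgfbi in macrophage-like cells 0.80 to 1.43 (9.52e-04 to 0.270, called in 11 of 20) and that of Tgfbr2 in DC-like cells 0.42 to 1.14 (0.00804 to 0.707, called in 7 of 20). The cause was not tested, beyond the fewer samples or cells in a fit. Leaving out D0 A could not be fitted in BEC-like and fibroblast-like cells, where no steady-state library would remain. DESeq2's scaling moved the median of all genes by at most 0.09 (log2). No paired analysis was possible because the labels give no replicate numbers, and the libraries of a day differ by isolation protocol, which is a term of every fit.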

Other observations

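Members of the list were also measured in cell types outside the 6 compared. Tgfbr2 reached 596 ± 205 CPM (n = 6) in lymphatic endothelial-like cells, which also had 98.8 ± 44.2 CPM of Ltbp1 and 52.5 ± 27.3 CPM of Tgfb2. Neutrophil-like cells had 153 ± 81.6 CPM of Tgfbr1 and 256 ± 113 CPM of Tgfbi (n = 12), and plasmacytoid DC-like cells 111 ± 29.0 CPM of Tgfbr1 (n = 10). Monocyte-like cells had 631 ± 201 CPM of Tgfbi (n = 9). NK and ILC1-like cells had 61.0 ± 28.4 CPM of Itgav (n = 11), against 36.1 CPM in T-like cells.

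Tgfb2 in T-like cells was at 19.7, 25.5 and 26.8 CPM in D3 A, D5 A and D9 A, at 0 CPM in D0 A, D19 A and D25 A, and at 0.249 to 2.99 CPM in the 7 protocol B libraries, so that the protocols overlapped. The protocol A sums held 33 to 88 T-like cells and at most 11 UMIs of Tgfb2. Over the 11 libraries with at least 20 such cells, CD8-like clusters held 89 UMIs of Tgfb2, against 105 in all T-like cells. The 12 CEC markers in T-like cells summed to 415 to 2088 CPM in protocol A and to 171 to 481 CPM in protocol B, and their part in the Tgfb2 level was not tested.

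Portal fibroblast-like cells had higher means than stellate-like cells for Tgfb2 (109 ± 34.2 against 60.7 ± 46.0 CPM), Tgfb3 (16.3 ± 8.54 against 7.48 ± 6.04 CPM) and Itgb8 (22.9 ± 11.4 against 10.6 ± 5.78 CPM), over 6 and 8 libraries, and these ranges overlap.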
